A study of Mus musculus with 12 samples.

Results

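The lysosome is described here through 47 genes that encode its hydrolases, their activators, its membrane proteins and its proton pump, measured by RNA-seq in mouse liver. The genes were given as a list of symbols by a rule that uses none of their values, though with earlier results of these data known. All 47 were found among the 24453 genes of the deposited tables. They comprise 24 hydrolases (8 proteases, 11 glycosidases, 2 sulfatases and 3 lipid and thioester hydrolases), 3 soluble activators and binding proteins, 7 membrane proteins and 13 genes of the vacuolar-type proton ATPase (V-ATPase).

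The 12 libraries came from C57Bl/6J mice fed a high-fat diet (HFD, 45% of calories from fat) for 8 weeks, 3 liver samples in each of 4 groups. Every mouse carried ColA-AMPKa1(312)/AMPKa1(312) and R26-rtTA/rtTA, a doxycycline (dox) inducible form of the AMPK catalytic subunit and the activator that doxycycline switches on. Albumin-Cre was carried in addition by L-iAMPK mice and not by iAMPK mice. The groups were L-iAMPK HFD+dox, the only one labelled as having AMPK activated, L-iAMPK HFD, iAMPK HFD+dox and iAMPK HFD. The albumin promoter that drives Cre is used by hepatocytes, and the labels give no age. Nothing in the labels says that the 3 samples of a group came from separate animals, so p-values reflect only how these samples vary, and that may be technical.

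AMPK is a kinase that responds to low cellular energy, and one pool of it is activated on the lysosomal surface, where the V-ATPase serves as a docking site. Lysosomal hydrolases are made in the endoplasmic reticulum, tagged with mannose 6-phosphate, delivered to the lysosome and work in the acid that the V-ATPase maintains by pumping protons across the membrane. Many lysosomal genes carry a short motif near their start that is bound by the transcription factors TFEB and TFE3, whose entry into the nucleus is held back by the kinase mTORC1. In liver, lysosomes recycle glycogen, lipid droplets and proteins of hepatocytes and are abundant in Kupffer cells, the resident macrophages.

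The motif was looked for in the 250 bases before each gene start, on both strands, in the RefSeq promoters of build GRCm38.p6. An entry existed for 39 of the 47 genes, and not for Ctsb, Ctsh, Asah1, Npc1, Atp6v0d2, Atp6v1b2, Atp6v1c1 and Atp6v1h. The 7 letters TCACGTG, or on the other strand the letters CACGTGA, were found in 12 of the 39 (30.8%), against 3.58% of 27025 genes. Its 6-letter core CACGTG, which every such match contains, was found in 14 of the 39 (35.9%), against 6.86% of all genes. The 27025 genes were not limited to those expressed in these livers, while all members were expressed there. The shares are therefore not on equal terms. The 12 genes were Ctsa, Ctsd, Gaa, Gla, Glb1, Naglu, Sgsh, Lamp1, Cln3, Mcoln1, Atp6v0b and Atp6v1a, and Ctsf and Ctsl held the core alone. Windows of 6 genes that recur in the results are printed 5′ to 3′ along the gene's own strand, each holding the match or group of matches nearest the start with up to 20 bases on either side and the matched letters in capitals. Naglu, Gaa, Lamp1 and Ctsl belong to the members given library by library, and Atp6v0b and Atp6v1a, proton pump genes, were added after their values were seen.
Naglu: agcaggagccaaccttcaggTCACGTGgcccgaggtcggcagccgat
Gaa: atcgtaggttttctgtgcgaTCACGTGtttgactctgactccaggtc
Ctsl: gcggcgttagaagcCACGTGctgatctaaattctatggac
Lamp1: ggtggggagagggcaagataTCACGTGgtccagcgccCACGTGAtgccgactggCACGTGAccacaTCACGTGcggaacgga
Atp6v0b: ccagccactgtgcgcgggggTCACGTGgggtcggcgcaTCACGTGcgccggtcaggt
Atp6v1a: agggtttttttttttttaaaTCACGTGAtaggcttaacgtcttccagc

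These windows lie at chr11:101070000-101070046 on the plus strand for Naglu, chr11:119267802-119267848 on the plus strand for Gaa and chr13:64370731-64370770 on the minus strand for Ctsl. They lie at chr8:13159079-13159160 on the plus strand for Lamp1, chr4:117887330-117887386 on the minus strand for Atp6v0b and chr16:44139364-44139411 on the minus strand for Atp6v1a. Between the nearest match and the start of the RefSeq promoter entry there were 67 bases in Naglu, 134 in Gaa, 230 in Ctsl, 9 in Lamp1, 12 in Atp6v0b and 124 in Atp6v1a. The RefSeq start was also the start of the transcript in the deposited tables for Naglu, Ctsl and Atp6v0b, while the deposited transcript of Gaa starts 4 bases and that of Atp6v1a 240 bases further downstream, and that of Lamp1 starts 26 bases upstream. Naglu and Gaa held a single match and Lamp1 held 4. A match says only that these letters are present in the window.

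Levels are given as FPKM, reads scaled to transcript length and library depth, with the authors' added constant of 0.5 removed. Prkaa1, the gene of the catalytic subunit that the construct encodes, was at 1071 ± 170 FPKM in L-iAMPK HFD+dox, against 3.51 ± 0.343 in L-iAMPK HFD, 2.85 ± 0.214 among iAMPK HFD+dox livers and 3.34 ± 0.749 in iAMPK HFD (SD, n = 3 each). Depth was 13569437 to 20696899 reads in genes in the 11 libraries whose recovered reads were used. All 47 members passed the filter for testing, and 46 had at least 0.5 FPKM in every library, the exception being Atp6v0d2. Mean levels over the 12 libraries ran between 1.01 FPKM for Atp6v0d2 and 355 FPKM for Lamp1. The summed hepatocyte markers lay between 59290 and 71929 FPKM in every library, with Alb at 25642 FPKM or more.

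Replicates 1 and 2 of L-iAMPK HFD stood apart from the other libraries. In 28 of the 47 members both of them were above all 10 other libraries, against 12.8% of all genes tested. The 28 were 15 of 24 hydrolases, 7 of 10 activators and membrane proteins and 6 of 13 V-ATPase genes. Over the third replicate of the group, their mean was higher in 41 of 47 members, by a median of 0.23 on the log2 scale, against 0.02 over all genes. Results that rest on L-iAMPK HFD are therefore given with and without these libraries.

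**Figure D1:**
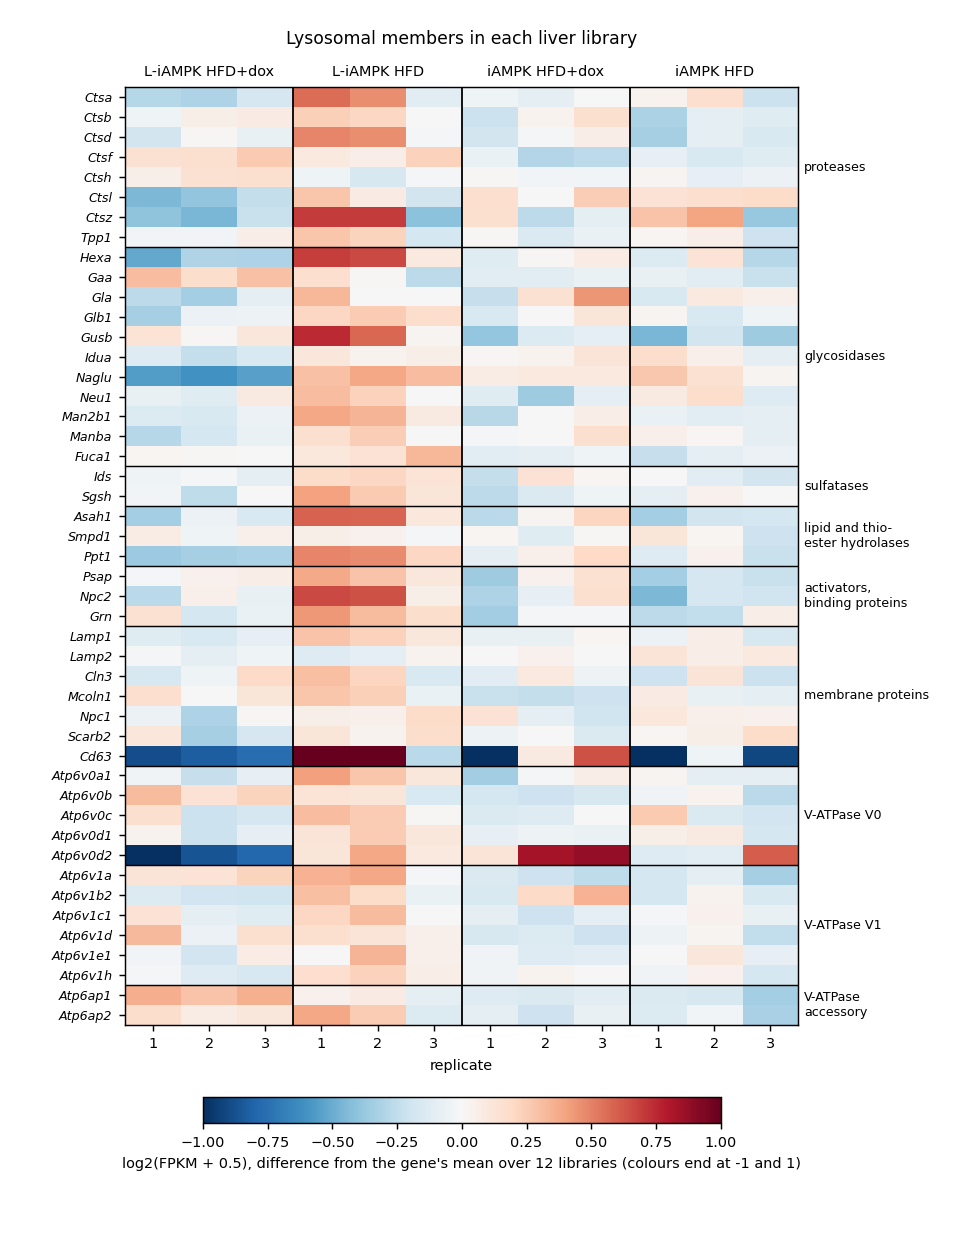
Each row is a member and each column a liver library; colour is log2(FPKM + 0.5) minus the gene's mean over the 12 libraries, red higher and blue lower. The red block in L-iAMPK HFD replicates 1 and 2 covers most roles, and Naglu is blue in all 3 L-iAMPK HFD+dox libraries.

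Doxycycline within L-iAMPK livers compared activated AMPK with its own genotype off. Against L-iAMPK HFD, L-iAMPK HFD+dox had 18 members that fell and 3 that rose, and 26 did not pass limma's test at an adjusted p of 0.05. Naglu, which removes N-acetylglucosamine from heparan sulfate, had the smallest p, and Cd63, a tetraspanin of late endosomes and lysosomes, the largest drop. Those that rose were Gaa, which releases glucose from glycogen, the protease Ctsh and Atp6ap1, an accessory protein of the V-ATPase. The 18 make 38.3% of the members beside 21.1% of all 12614 genes that were called lower, and the 3 make 6.38% beside 4.76% called higher. The median change of the members was -0.25 (log2), against -0.13 over all genes.

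By role, 11 of 24 hydrolases fell and 2 rose, with a median of -0.35. Of the 10 activators and membrane proteins 3 fell (Npc2, Lamp1 and Cd63), with a median of -0.24; none rose by limma at either the adjusted or the unadjusted threshold, and edgeR called Lamp2 higher. Of the 13 V-ATPase genes 4 fell (Atp6v0a1, Atp6v0d1, Atp6v0d2 and Atp6v1h) and 1 rose, with a median of -0.20. In this bulk tissue, fewer cells of a type and less RNA per cell cannot be told apart.

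Of the 18 members that fell, 15 had their highest values in exactly replicates 1 and 2 of that group. The 18 were picked for being lower than this group, so high values in it are in part built in. The same share among all genes called lower was not worked out. Without both, an alternative added after seeing the data, 2 fell (Naglu and Ppt1) beside 4.51% of all genes and 2 rose (Gaa and Atp6ap1) beside 1.26%. That fit leaves L-iAMPK HFD with 1 library, assumed to vary like the other groups, so a call lost in it does not show that the change rested on the pair. All 18 differences stayed negative. Some were about as large, such as Glb1 at -0.32 without the pair, where it was -0.36 with all libraries, and Atp6v0d2 at -1.03, where it was -1.13. Others were much smaller, such as Ctsd at -0.071, where it was -0.39, and Ctsa at -0.15, where it was -0.56. Leaving out 1 library gave 6 calls without L-iAMPK HFD replicate 1, 6 without replicate 2, and 12, 8 and 13 without L-iAMPK HFD+dox replicate 1, 2 and 3. Scaling each library to the median of all genes, which takes out the -0.13 shift, gave 6 lower (12.8% of the members, beside 11.4% of all genes) and 4 higher (8.51% beside 11.7%). With edgeR on recovered reads 6 were lower (12.8% beside 11% of all genes) and 5 higher (10.6% beside 10.7%), so that by both of these the members' shares were near those of all genes.

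The genotypes were also compared with doxycycline given to both. Against iAMPK HFD+dox, L-iAMPK HFD+dox had 6 members that rose and 4 that fell, and 37 did not pass. Those that rose were the protease Ctsf, Gaa, the calcium channel gene Mcoln1 and the pump genes Atp6v0b, Atp6v1a and Atp6ap1. Without doxycycline, L-iAMPK HFD minus iAMPK HFD (log2) was 0.25 for Ctsf, 0.11 for Gaa and 0.18 for Mcoln1. It was 0.12 for Atp6v0b, 0.44 for Atp6v1a, which was called there, and 0.23 for Atp6ap1. Differences of the same sign between the genotypes were thus present without AMPK activation. The 4 that fell were Ctsl, Naglu, Ppt1 and Atp6v0d2. The 6 make 12.8% of the members beside 4.61% of all genes called higher, and the 4 make 8.51% beside 10.3% called lower. Their median change was -0.02 (log2), against -0.08 over all genes, and it was -0.04 for hydrolases, -0.04 for activators and membrane proteins and 0.04 for V-ATPase genes.

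Both comparisons share the L-iAMPK HFD+dox libraries. After the median scaling 7 rose (14.9% beside 8.46% of all genes) and 4 fell (8.51% beside 7.26%). With edgeR 7 were higher (14.9% beside 3.86%) and 3 lower (6.38% beside 4.01%). In place of 10 calls, 4 were made without L-iAMPK HFD+dox replicate 1, and 5 calls were made without its replicate 3, without iAMPK HFD+dox replicate 2 or without iAMPK HFD+dox replicate 3. Among the 12 members with TCACGTG or CACGTGA before their start, 4 rose, 1 fell and 7 did not pass against iAMPK HFD+dox. Among the 27 with a promoter entry and neither, 2 rose, 2 fell and 23 did not pass. Against L-iAMPK HFD the counts were 1 risen, 6 fallen and 5 not passed with the motif, and 1, 9 and 17 without it. The median changes (log2) with and without the motif were -0.010 and -0.018 against iAMPK HFD+dox. Against L-iAMPK HFD they were -0.336 and -0.242. The counts are small, and the same shares over all genes with the motif were not worked out. The 4 with the motif that rose, Gaa, Mcoln1, Atp6v0b and Atp6v1a, lost that call in 6, 9, 4 and 6 of 24 alternatives. A link between motif and change was not tested.

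**Figure D2:**
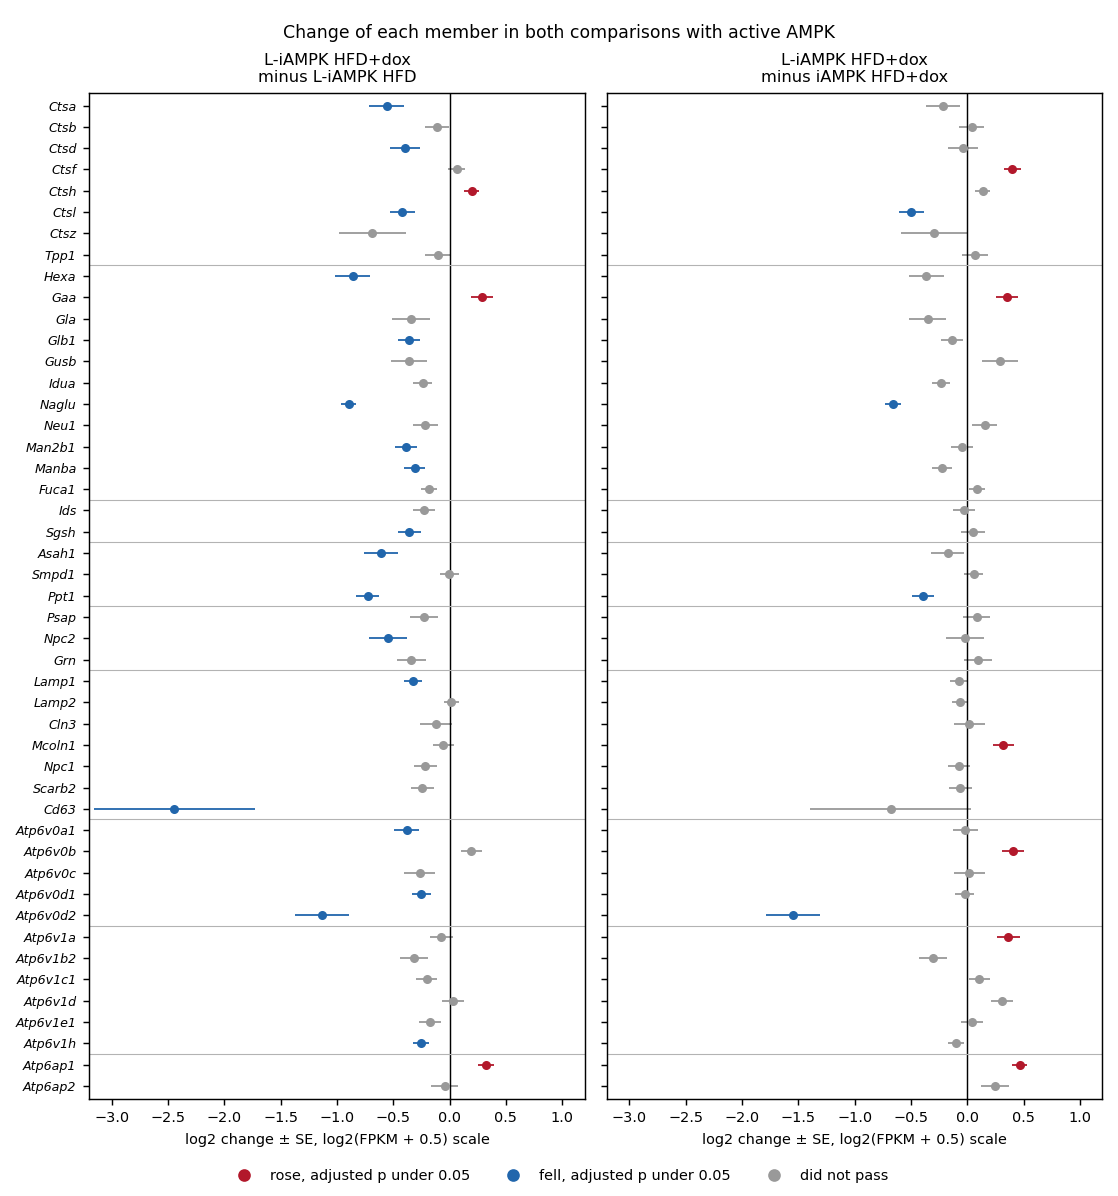
Points are each member's log2 change on the log2(FPKM + 0.5) scale with its standard error, L-iAMPK HFD+dox minus L-iAMPK HFD on the left and minus iAMPK HFD+dox on the right; colour marks the limma call. On the left 18 members are blue and 3 red, and on the right 4 are blue and 6 red.

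Over all libraries, 6 of 47 members were lower in all 3 L-iAMPK HFD+dox libraries than in each of the 9 others (Ctsl, Hexa, Idua, Naglu, Ppt1 and Atp6v0d2), where 12.2% of all genes were. The members' share was thus near that of all genes. Another 4 were higher in all 3 (Ctsh, Gaa, Atp6v0b and Atp6ap1), where 4.19% of all genes were. Of these 10 genes, 7 encode hydrolases and 3 encode V-ATPase subunits or accessory proteins, where the 47 hold 24 and 13 of these.

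Naglu (chr11:101070094-101077671 in mm10, plus strand) was measured at 7.26, 7.02 and 7.33 FPKM in L-iAMPK HFD+dox. The other groups had 13.5, 14.4 and 13.6 FPKM in L-iAMPK HFD, 11.51, 11.743 and 11.744 in iAMPK HFD+dox and 13.2, 12.2 and 11.1 in iAMPK HFD. The 3 low libraries lay close together and well under the lowest of the other 9. By limma it fell by 0.90 (log2, SE 0.07, adjusted p = 2.59e-05) against L-iAMPK HFD and by 0.66 (SE 0.07) against iAMPK HFD+dox (adjusted p = 0.000194). All 24 alternatives kept both calls, with adjusted p from 3.40e-06 to 0.00280 and from 1.04e-05 to 0.00264. Its neighbour Atp6v0a1, a subunit of the proton channel part of the pump that ends 6376 bases before Naglu starts, changed by -0.38 (SE 0.11) against L-iAMPK HFD (adjusted p = 0.0293) and had a difference of -0.02 (SE 0.11) against iAMPK HFD+dox, which did not pass.

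Ppt1 (chr4:122836227-122859175, plus strand), a thioesterase that strips fatty acids from proteins, was at 13.3, 13.6 and 13.7 FPKM in L-iAMPK HFD+dox. It was at 24.47, 24.12 and 20.001 FPKM in L-iAMPK HFD, 16.2, 17.8 and 19.9 in iAMPK HFD+dox and 15.7, 17.8 and 14.7 in iAMPK HFD. The L-iAMPK HFD+dox values were again the 3 lowest and differed little among themselves. Ppt1 fell by 0.73 (SE 0.10, limma, adjusted p = 0.000917) against L-iAMPK HFD and by 0.39 (SE 0.10) against iAMPK HFD+dox (adjusted p = 0.0243). The first call held in all 24 alternatives and the second in 17 of 24, with edgeR among those that lost it.

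Ctsl (chr13:64361890-64370520, minus strand), a cysteine protease, had 96.2, 100.1 and 112 FPKM in L-iAMPK HFD+dox, against 160, 140 and 116 in L-iAMPK HFD, 148, 131 and 156 in iAMPK HFD+dox and 146, 148 and 150 in iAMPK HFD. Only replicate 3 of L-iAMPK HFD came near the low group. By limma it fell by 0.42 (SE 0.11, adjusted p = 0.0199) against L-iAMPK HFD and by 0.50 (SE 0.11) against iAMPK HFD+dox (adjusted p = 0.0146). Median scaling and edgeR each lost the first call and kept the second.

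Gaa (chr11:119267967-119285698, plus strand) was the glycosidase that went the other way, at 31.5, 28.6 and 31.1 FPKM in L-iAMPK HFD+dox. It had 28.5, 25.6 and 21.0 FPKM in L-iAMPK HFD, 23.4, 23.5 and 24.2 in iAMPK HFD+dox and 23.95, 23.32 and 21.58 in iAMPK HFD. Replicate 2 of L-iAMPK HFD+dox and replicate 1 of L-iAMPK HFD almost touched. Gaa rose by 0.29 (SE 0.10, limma, adjusted p = 0.0481) against L-iAMPK HFD and by 0.35 (SE 0.10) against iAMPK HFD+dox (adjusted p = 0.0314). The first call held in 9 of 24 alternatives, median scaling and edgeR among them, and the second in 18 of 24.

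Hexa (chr9:59539667-59565105, plus strand), the alpha subunit of beta-hexosaminidase, which trims gangliosides, was at 25.3, 29.4 and 29.2 FPKM in L-iAMPK HFD+dox. It reached 59.2, 57.9 and 39.0 FPKM in L-iAMPK HFD, 33.4, 36.7 and 38.4 in iAMPK HFD+dox and 33.0, 40.0 and 29.7 in iAMPK HFD. The L-iAMPK HFD+dox values were the 3 lowest of the 12, and replicates 1 and 2 of L-iAMPK HFD were far above all others. It fell by 0.86 (SE 0.16) against L-iAMPK HFD (limma, adjusted p = 0.00381), a call that was lost among 24 alternatives only without those replicates, where the difference was -0.47 with 1 library left in the group. Against iAMPK HFD+dox the difference was -0.36 (SE 0.16) and did not pass (adjusted p = 0.136).

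Asah1 (chr8:41340646-41374697, minus strand), the acid ceramidase, was at 15.6, 19.0 and 17.8 FPKM in L-iAMPK HFD+dox, against 30.0, 29.9 and 21.3 in L-iAMPK HFD, 16.3, 20.2 and 23.1 in iAMPK HFD+dox and 15.5, 17.3 and 17.5 in iAMPK HFD. Here the L-iAMPK HFD+dox values overlapped with both iAMPK groups, and L-iAMPK HFD replicates 1 and 2 were the high ones. It fell by 0.61 (SE 0.15) against L-iAMPK HFD (adjusted p = 0.0138 by limma), and without replicates 1 and 2 the difference was -0.29 and did not pass.

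Of the other hydrolases, Ctsa (a carboxypeptidase that also stabilizes Glb1 and Neu1), the aspartic protease Ctsd, Glb1 (beta-galactosidase), Man2b1 and Manba (mannosidases) and Sgsh (a heparan sulfate sulfatase) fell by 0.31 to 0.56 on the log2 scale against L-iAMPK HFD and did not pass against iAMPK HFD+dox. Between 6 (Ctsd) and 16 (Glb1 and Man2b1) of 24 alternatives kept these calls. Ctsf, a cysteine protease, had 16.6, 16.6 and 17.9 FPKM in L-iAMPK HFD+dox and 14.13, 11.999 and 12.28 in iAMPK HFD+dox, a rise of 0.40 (SE 0.07, limma, adjusted p = 0.00586) that held in all 24 alternatives. Against L-iAMPK HFD (15.9, 15.6 and 17.4 FPKM) its difference was 0.06 and did not pass. Ctsh, an aminopeptidase, was at 149, 159 and 160 FPKM in L-iAMPK HFD+dox and 139, 128 and 142 in L-iAMPK HFD, with an adjusted p of 0.0499 that 17 of 24 alternatives lost. The remaining hydrolases passed neither test: Ctsb, Ctsz, Tpp1, Gla, Gusb, Idua, Neu1, Fuca1, Ids and Smpd1. Of these, the carboxypeptidase gene Ctsz had 221 and 220 FPKM in L-iAMPK HFD replicates 1 and 2 and 102 in replicate 3, and a difference of -0.69 (SE 0.29) against L-iAMPK HFD.

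Some of these levels are uncertain because genes overlap. Ctsa shares 1515 bases with Pltp, Ctsb 773 with Fdft1, Idua 5485 with Slc26a1 and Ppt1 128 with Cap1, each on the opposite strand. The use of strand in counting is not stated in the labels, and reads of such pairs cannot then be told apart. Glb1 shares 10107 bases with Tmppe on the same strand, and Atp6v0c shares 5530 with a gene named Atp6v0c-ps2, so that their reads may have been split.

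Among the activators, Psap, the precursor of the saposins, which present lipids to hydrolases, averaged 251 ± 6.74 FPKM in L-iAMPK HFD+dox, against 295 ± 27.4 in L-iAMPK HFD, 239.5 ± 42.3 among iAMPK HFD+dox livers and 207 ± 12.5 in iAMPK HFD (SD, n = 3 each). Npc2, which binds cholesterol in the lumen, was at 19.4, 24.3 and 22.3 FPKM in L-iAMPK HFD+dox and 37.3, 36.7 and 24.4 in L-iAMPK HFD. It fell by 0.55 (SE 0.17, limma, adjusted p = 0.0369), and 12 of 24 alternatives lost that call. Grn, progranulin, passed neither test. None of the 3 passed against iAMPK HFD+dox, where their differences ran between -0.02 and 0.10.

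Lamp1 and Lamp2, heavily glycosylated proteins that line the lysosomal membrane, had the highest mean levels of the 47. Lamp1 was at 325, 317 and 334 FPKM in L-iAMPK HFD+dox, against 432, 414 and 382 in L-iAMPK HFD, 336, 335 and 359 in iAMPK HFD+dox and 340, 371 and 317 in iAMPK HFD. The L-iAMPK HFD libraries were the 3 highest of the 12. The L-iAMPK HFD+dox values overlapped with those of iAMPK HFD and lay just under those of iAMPK HFD+dox. Lamp1 fell by 0.33 (SE 0.08) against L-iAMPK HFD (limma, adjusted p = 0.0133), a call lost with median scaling, with edgeR and without replicate 1 or replicates 1 and 2 of L-iAMPK HFD.

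Lamp2 was at 248, 233 and 241 FPKM in L-iAMPK HFD+dox, against 228, 233 and 256 in L-iAMPK HFD, 250, 257 and 250 in iAMPK HFD+dox and 272, 262 and 267 in iAMPK HFD. It was close to level across groups, with differences of 0.01 (SE 0.07) against L-iAMPK HFD and -0.07 (SE 0.07) against iAMPK HFD+dox, neither of which passed.

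Cd63, chosen after its values were seen, was at 1.197, 1.273 and 1.35 FPKM in L-iAMPK HFD+dox. L-iAMPK HFD had 17.2 and 18.9 FPKM in replicates 1 and 2 and 2.10 in replicate 3, while iAMPK HFD+dox had 0.900, 2.84 and 4.38 and iAMPK HFD had 1.07, 2.54 and 1.17. No other library came near the pair of high ones. Its fall of 2.44 (SE 0.72, limma, adjusted p = 0.0323) against L-iAMPK HFD is an average over very unequal libraries, and without that pair the difference was -0.55 and did not pass. Mcoln1, a channel that releases calcium from lysosomes, had 19.6, 17.4 and 18.9 FPKM in L-iAMPK HFD+dox and 14.8, 14.6 and 15.0 in iAMPK HFD+dox and rose by 0.32 (SE 0.09, limma, adjusted p = 0.0390), a call that 9 of 24 alternatives lost. Against L-iAMPK HFD its difference was -0.06 and did not pass. Cln3, Npc1, which exports cholesterol, and Scarb2, a sorting receptor of the lysosomal membrane, passed neither test.

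**Figure D3:**
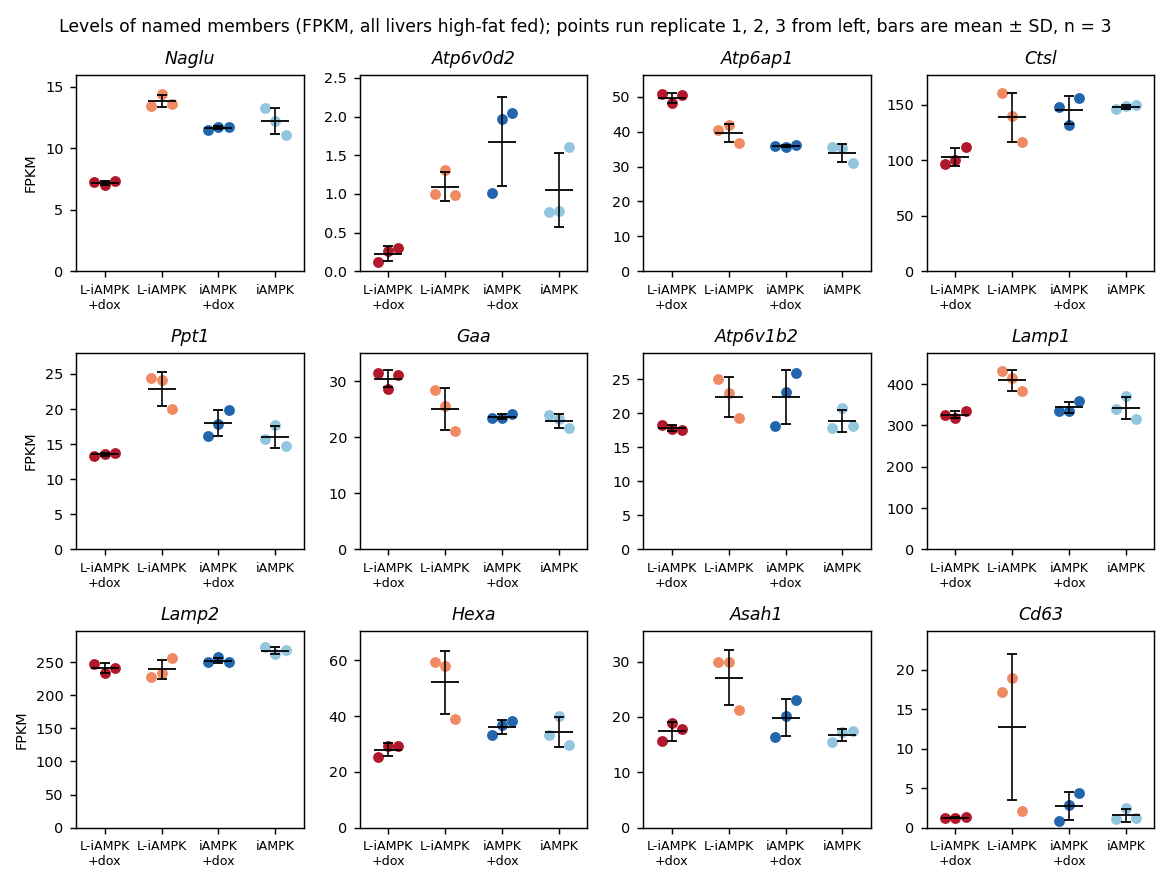
Points are FPKM in each library for 12 members, with group mean and SD (n = 3) in black; axes start at 0. Naglu, Ppt1 and Atp6v0d2 are lowest and Atp6ap1 highest in the 3 L-iAMPK HFD+dox libraries, and Cd63 is high in L-iAMPK HFD replicates 1 and 2 alone.

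The V-ATPase has a membrane sector, V0, that carries protons and a cytosolic sector, V1, that splits ATP. Atp6v0d2 encodes an isoform of subunit d of V0 that is known best from osteoclasts and macrophages (chr4:19876838-19922566 in mm10, minus strand). It was at 0.124, 0.259 and 0.301 FPKM in L-iAMPK HFD+dox, against 1.001, 1.305 and 0.98 in L-iAMPK HFD, 1.01, 1.97 and 2.04 in iAMPK HFD+dox and 0.763, 0.779 and 1.61 in iAMPK HFD. Those levels rest on 7, 16 and 15 recovered reads in L-iAMPK HFD+dox and on 40 to 98 in the other 8 libraries whose recovered reads were used. The groups were clearly apart, at a low level. By limma it fell by 1.13 (SE 0.24, adjusted p = 0.00741) against L-iAMPK HFD and by 1.55 (SE 0.24) against iAMPK HFD+dox (adjusted p = 0.00231), on a scale that understates changes of low genes. The second call held in all 23 alternatives that tested it, and the first was lost only without L-iAMPK HFD replicates 1 and 2, where the difference was -1.03 with 1 library left in that group.

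Its paralog Atp6v0d1, the widely used isoform of subunit d, was at 38.5, 32.4 and 35.5 FPKM in L-iAMPK HFD+dox, against 41.2, 44.9 and 40.6 in L-iAMPK HFD, 35.5, 36.4 and 35.8 in iAMPK HFD+dox and 39.1, 40.0 and 33.2 in iAMPK HFD. Per kilobase it was far above Atp6v0d2 in every library. It fell by 0.25 (SE 0.09) against L-iAMPK HFD (limma, adjusted p = 0.0488), which 18 of 24 alternatives lost, and its difference against iAMPK HFD+dox was -0.02.

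Atp6ap1 (chrX:74297097-74304721, plus strand), which assists the assembly of the pump, was at 50.7, 48.2 and 50.5 FPKM in L-iAMPK HFD+dox. The other groups had 40.6, 41.8 and 36.9 FPKM in L-iAMPK HFD, 35.9, 35.6 and 36.3 in iAMPK HFD+dox and 35.5, 35.2 and 31.0 in iAMPK HFD. Its 3 high libraries lay above all 9 others. Atp6ap1 rose by 0.32 (SE 0.07, limma, adjusted p = 0.00853) against L-iAMPK HFD and by 0.46 (SE 0.07) against iAMPK HFD+dox (adjusted p = 0.00213). Both calls held in all 24 alternatives, with adjusted p from 0.00147 to 0.0356 and from 6.68e-05 to 0.0121.

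Atp6v1b2, the V1 subunit that helps to bind ATP, was at 18.3, 17.7 and 17.5 FPKM in L-iAMPK HFD+dox, against 25.03, 23.02 and 19.27 in L-iAMPK HFD, 18.2, 23.1 and 25.9 in iAMPK HFD+dox and 17.9, 20.7 and 18.1 in iAMPK HFD. The groups overlapped on the doxycycline side, and its differences of -0.31 and -0.30 (SE 0.13 each) did not pass (limma, adjusted p = 0.0855 and 0.124). Atp6v1a, the catalytic V1 subunit, had 19.9, 19.9 and 21.2 FPKM in L-iAMPK HFD+dox and 16.3, 15.6 and 15.1 in iAMPK HFD+dox and rose by 0.37 (SE 0.10, adjusted p = 0.0334). Atp6v0b, a proton-carrying ring subunit of V0, had 69.5, 61.6 and 65.1 FPKM in L-iAMPK HFD+dox and 49.2, 48.2 and 49.8 in iAMPK HFD+dox and rose by 0.41 (SE 0.10, adjusted p = 0.0179). Against L-iAMPK HFD neither passed with limma, at -0.08 and 0.19, and edgeR and median scaling called Atp6v0b higher. Atp6v1h, a regulatory V1 subunit, fell by 0.26 (SE 0.07, adjusted p = 0.0272) against L-iAMPK HFD, a call that 9 of 24 alternatives lost, and Atp6v0a1 lost its call there in 10 of 24. Atp6v1d, a subunit of the rotating V1 stalk, had a difference of 0.31 (SE 0.10, adjusted p = 0.0526) against iAMPK HFD+dox that edgeR and median scaling called higher. Atp6v0c, Atp6v1c1, Atp6v1e1 and Atp6ap2 passed neither test.

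Hydrolases and pump were then set side by side as sums per library, with no test. The 24 hydrolases summed to 1084 ± 45.0 FPKM in L-iAMPK HFD+dox, against 1359 ± 209 in L-iAMPK HFD, 1150 ± 51.3 among iAMPK HFD+dox livers and 1125 ± 65.1 in iAMPK HFD (SD, n = 3 each). The 13 V-ATPase genes summed to 358 ± 21.3 FPKM in L-iAMPK HFD+dox, against 374 ± 31.5 in L-iAMPK HFD, 320 ± 4.94 among iAMPK HFD+dox livers and 325 ± 24.9 in iAMPK HFD. Hydrolases had their lowest mean in L-iAMPK HFD+dox, with libraries between 1037 and 1127 FPKM that overlapped with both iAMPK groups. After median scaling that mean was 1142.9 FPKM and no longer the lowest. The high L-iAMPK HFD mean came with 1508 and 1449 FPKM in replicates 1 and 2 and 1121 in replicate 3. The ratio of the V-ATPase sum to the hydrolase sum was 0.363, 0.308 and 0.321 in L-iAMPK HFD+dox and between 0.253 and 0.303 in the 9 other libraries.

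Sums are led by the most abundant genes: Ctsd, Ctsb, Ctsh, Ctsz and Ctsl held a median of 69.1% of the hydrolase sum. Without these 5 the ratio was 1.01 to 1.14 in L-iAMPK HFD+dox and 0.799 to 0.954 in the 9 others. When every gene counted equally, as the mean log2 of V-ATPase genes minus that of hydrolases, the values were -0.21 to -0.05 in L-iAMPK HFD+dox and -0.35 to -0.20 in the 9 others, and these overlapped.

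**Figure D4:**
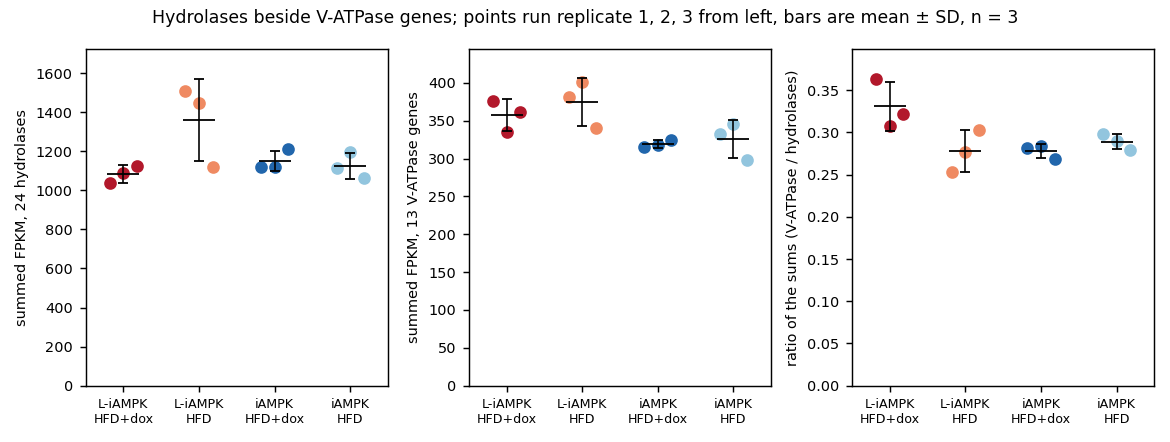
Points are summed FPKM per library for 24 hydrolases and 13 V-ATPase genes and the ratio of the sums, with group mean and SD (n = 3) in black; axes start at 0. The ratio is 0.308 to 0.363 in L-iAMPK HFD+dox and at most 0.303 in every other library.

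Doxycycline without Albumin-Cre was the control for the drug. Between iAMPK HFD+dox and iAMPK HFD, limma called none of the 47 members, as it called 0% of all genes lower and 0% higher. At an unadjusted p under 0.05, 0 members were found beside 4.25% of all genes higher and 1.98% lower, and edgeR called 0 of 13773. The members' differences ran between -0.24 and 0.51, with a median of 0.02.

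The genotypes without doxycycline were the control for Albumin-Cre. L-iAMPK HFD had 7 members higher than iAMPK HFD: Gusb (beta-glucuronidase), Fuca1 (alpha-fucosidase), Asah1, Ppt1, Psap, Npc2 and Atp6v1a, by 0.32 to 0.78 on the log2 scale. The 7 make 14.9% of the members beside 3.04% of all genes called higher, and 0 members were called lower beside 1.27% of all genes. At an unadjusted p under 0.05, 23 members were higher (48.9% beside 19.5% of all genes) and 1 lower (2.13% beside 6.06%). By edgeR 2 were higher (4.26% beside 1.1%) and 0 lower (beside 1.5%). The median of the members was 0.23, against 0.08 over all genes. No member was called without L-iAMPK HFD replicate 1, without replicate 2 or without both, nor without iAMPK HFD replicate 1 or replicate 3, and 19 were called without L-iAMPK HFD replicate 3 (18 higher). Macrophage markers, 19 genes, summed to 394 to 515 FPKM in L-iAMPK HFD and 239 to 340 in iAMPK HFD without overlap; 0 of the 19 were called by limma or edgeR and 9 were higher at an unadjusted p under 0.05, and their part in the members' result was not tested. Other single libraries left out gave 2 to 13 calls: 2 without iAMPK HFD replicate 2, iAMPK HFD+dox replicate 2, or either of replicates 2 and 3 of L-iAMPK HFD+dox, 4 without L-iAMPK HFD+dox replicate 1, 7 without iAMPK HFD+dox replicate 3 and 13 without iAMPK HFD+dox replicate 1.

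The interaction tests whether the change with doxycycline differed between L-iAMPK and iAMPK livers. It was negative in 5 members (Naglu, Ppt1, Atp6v0d2, Hexa and Asah1), or 10.6%, beside 11.2% of all genes, and positive in 0 beside 2.01%. The members' share of negative calls was thus near that of all genes. At an unadjusted p under 0.05 it was negative in 20 (42.6% beside 26.5% of all genes) and positive in 1 (2.13% beside 5.72%). By edgeR 3 were negative (Naglu, Ppt1 and Atp6v0d2, 6.38% beside 2.92%) and 0 positive (beside 2.43%). Median scaling gave 5 negative (10.6% beside 5.74%) and 2 positive (Atp6ap1 and Atp6v0b, 4.26% beside 5.72%). Without L-iAMPK HFD replicates 1 and 2, which leaves that group with 1 library, Naglu alone was called negative, beside 0.846% of all genes, and 0 positive, beside 0.21%. Among cell type markers the interaction was negative in 2 of 19 for macrophages (median -1.003 on the log2 scale, 13 negative at an unadjusted p under 0.05), 5 of 10 for endothelial cells, 3 of 9 for stellate cells and 0 of 5 tested for cholangiocytes, and positive in 1 of 13 for hepatocytes, and their part in the members' result was not tested. Leaving out 1 library gave 15 calls without iAMPK HFD+dox replicate 1, 16 without L-iAMPK HFD replicate 3 and 3 to 5 without any other.

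The other genes of the pathway were read from lists of hydrolases, membrane proteins, pump genes, delivery genes and regulators. Of all genes tested, 21.1% fell and 4.76% rose against L-iAMPK HFD, and 10.3% fell and 4.61% rose against iAMPK HFD+dox. The medians over all genes were -0.13 and -0.08, and these values stand beside every list below. Of 30 other hydrolases and cofactors, 12 fell and 2 rose against L-iAMPK HFD and 3 fell and 2 rose against iAMPK HFD+dox, with medians of -0.25 and -0.07. Their share of falls against iAMPK HFD+dox was near that of all genes. Against iAMPK HFD+dox, Gm2a, an activator that presents gangliosides for breakdown, rose by 0.77 (SE 0.07, limma, adjusted p = 8.46e-05). Hgsnat, an acetyltransferase of heparan sulfate breakdown, rose by 0.25 there. Gm2a averaged 36.2 FPKM in L-iAMPK HFD+dox, against 30.7 in L-iAMPK HFD, 21.1 among iAMPK HFD+dox livers and 21.3 in iAMPK HFD. A genotype difference of the same sign in Gm2a was thus present without AMPK activation. Hgsnat averaged 21.2, 17.6, 17.8 and 17.4 FPKM in the same order.

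Of 19 other membrane proteins, 2 fell and 2 rose against L-iAMPK HFD, and 0 fell and 1 rose against iAMPK HFD+dox. Slc17a5, the sialic acid exporter, rose in both, by 0.37 and 0.36 (SE 0.08 each). Clcn7, a chloride and proton exchanger, fell by 0.32 and Mfsd8 rose by 0.32 against L-iAMPK HFD. Of 14 tested among 19 other pump and assembly genes, 1 fell against L-iAMPK HFD and 2 rose against iAMPK HFD+dox. Atp6v0e2, a V0 subunit isoform, fell by 1.42 (SE 0.20, limma, adjusted p = 0.000965), while Rogdi rose by 0.58 and the assembly factor Tmem199 by 0.33.

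Of 13 genes for tagging and delivery, 6 fell and 0 rose against L-iAMPK HFD, with a median of -0.26, and 1 fell against iAMPK HFD+dox. By edgeR 2 of the 13 were lower against L-iAMPK HFD and 0 were called against iAMPK HFD+dox. Gnptg, a subunit of the enzyme that starts the mannose 6-phosphate tag, fell by 0.56 and 0.38 (SE 0.08 each, limma, adjusted p = 0.000893 and 0.00884). The mannose 6-phosphate receptor gene M6pr fell by 0.37 and the retromer gene Vps29 by 0.41 against L-iAMPK HFD. Of 8 MiT/TFE factors and regulators, which include Tfeb and Tfe3, Zkscan3 alone was called, and it fell by 0.24 and 0.33. Of 10 tested genes of the lysosomal mTORC1 platform, Mtor fell by 0.66 (SE 0.14) against L-iAMPK HFD and Lamtor4 rose by 0.28 (SE 0.08) against iAMPK HFD+dox. Against L-iAMPK HFD, edgeR called 6 other hydrolases lower and 2 higher, 1 and 2 membrane proteins, and 1 and 1 pump genes. Against iAMPK HFD+dox these were 1 and 2, 0 and 1, and 0 and 1. Over all genes edgeR called 11% lower and 10.7% higher against L-iAMPK HFD, and 4.01% and 3.86% against iAMPK HFD+dox. The lists are described by counts and medians, with no test of a list.

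Markers of other liver cell types moved with some of these groups. Macrophage markers, 19 genes, summed to 257 to 471 FPKM in L-iAMPK HFD+dox, against 394 to 515 in L-iAMPK HFD, 305 to 602 among iAMPK HFD+dox livers and 239 to 340 in iAMPK HFD. By limma 0 of the 19 were called against L-iAMPK HFD (5 lower at an unadjusted p under 0.05) and 0 against iAMPK HFD+dox (3 lower), and edgeR called 0 in both. Endothelial markers fell in 6 of 10 against L-iAMPK HFD and in 1 of 10 against iAMPK HFD+dox, and stellate cell markers fell in 5 of 9 and 3 of 9. Cholangiocyte markers, led by Spp1 (of 5 tested, Krt7 fell against L-iAMPK HFD, and Cftr was under 0.5 FPKM in all libraries), summed to 17.6 to 22.5 FPKM in L-iAMPK HFD+dox and 26.7 to 180 in the 9 others. Spp1 averaged 59.5 FPKM over the 12 libraries, and Krt19, Krt7, Epcam, Sox9 and Cftr each 0.926 or less. These sums therefore follow Spp1 alone and say little about the other markers of this cell type. Hepatocyte markers rose in 4 of 13 and fell in 0 against L-iAMPK HFD (median 0.11, log2), and rose in 3 and fell in 1 against iAMPK HFD+dox (median -0.15). Beside these counts, 21.1% of all genes fell and 4.76% rose against L-iAMPK HFD, and 10.3% fell and 4.61% rose against iAMPK HFD+dox. The part of these markers in the members' results was not tested.

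**Figure D5:**
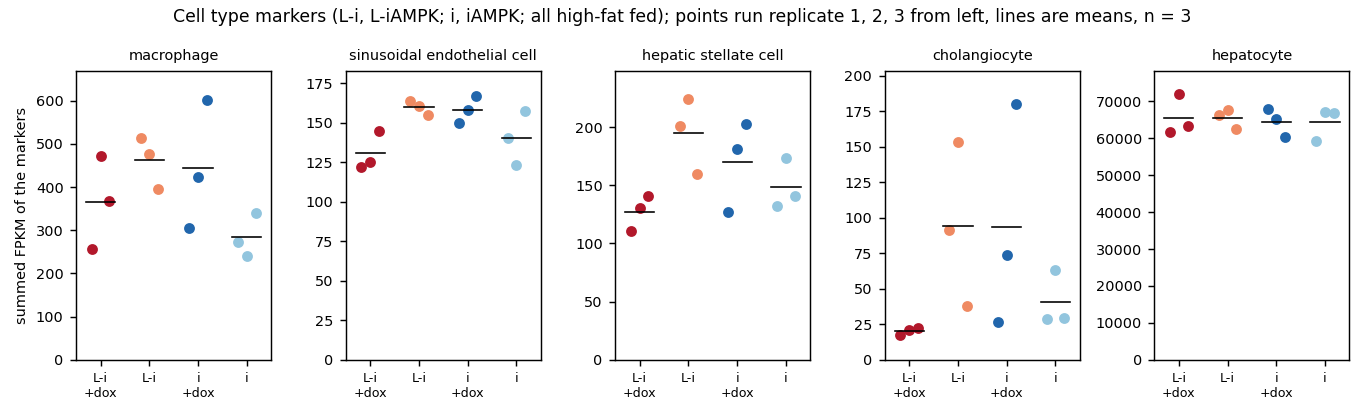
Points are summed FPKM of the markers of 5 cell types in each library, with group means as lines; axes start at 0. Macrophage sums in L-iAMPK HFD+dox overlap with those of each other group, those of L-iAMPK HFD lie above all of iAMPK HFD, and cholangiocyte sums are 17.6 to 22.5 in L-iAMPK HFD+dox and at least 26.7 elsewhere. The cholangiocyte sums are nearly all Spp1.

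The authors' deposited table holds their own comparisons, with positive log2 values where L-iAMPK HFD+dox was higher. Shares of all genes in this paragraph are over all 24453 genes, including those that did not pass the filter for testing. All 47 members passed that filter, so these shares cannot be set beside the members' on equal terms. At an adjusted p under 0.05 the authors' deposited table listed 2 of the 47 members higher (4.26%, beside 4.27% of all genes) and 5 lower (10.6% beside 6.64%) against L-iAMPK HFD. The authors' deposited table had 6 higher (12.8% beside 2.57%) and 2 lower (4.26% beside 3.79%) against iAMPK HFD+dox, and 4 higher (8.51% beside 2.53%) and 3 lower (6.38% beside 3.41%) against iAMPK HFD. Naglu had log2 values of -0.76, -0.59 and -0.69 and Atp6ap1 of 0.50, 0.57 and 0.62 in the same order in the authors' deposited table.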

How the data were processed

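Flash-frozen liver RNA went into TruSeq stranded-mRNA libraries, per the labels' protocols. The submitters' processing notes name FastQC, STAR 2.4.0k, HOMER, edgeR 3.6.8 and mm10, without role or order. The authors deposited FPKM per gene with 0.5 added, and a second table with scaled tag signal, log2 fold changes and p-values, adjusted, for their own comparisons, per the file headers. Of the members, 10 have another transcript in the second table, and Naglu and Atp6v0d2 another place; values were matched by symbol and coordinates taken from the FPKM table.

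Genes with at least 0.5 FPKM in at least 3 of 12 libraries (12614) were tested as log2(FPKM + 0.5) with limma 3.58.1 in R 4.3.3 (4 group means, trend, robust), with Benjamini-Hochberg adjustment over all of them and a threshold of 0.05. The scripts were tested on simulated data. From the scaled tags, 99.98% to 100% of values gave whole reads within 0.02 in 11 libraries, and these were tested with edgeR 4.0.16 as an alternative (2992, 1083, 0, 358 and 736 of 13773 genes called, for L-iAMPK HFD+dox against L-iAMPK HFD, then iAMPK HFD+dox, iAMPK HFD+dox against iAMPK HFD, L-iAMPK HFD against iAMPK HFD, and the interaction). In iAMPK HFD+dox replicate 2, 100% of values gave whole reads too. It was still not among the libraries used as reads, and edgeR leaves it out.

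Members and lists were chosen with earlier results of these data known. Given library by library were members called in both comparisons with non-overlapping groups, the 3 V-ATPase genes with the smallest larger p, the 2 highest members and those with an interaction, and of each other list up to 3 called genes per comparison, some of which are not reported here. The alternatives are named in the closing section. How precise a level is can be read from its SD over 3 libraries.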

Additional observations from a re-analysis of the deposited data

Results flagged for a closer look

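The change with doxycycline differed between L-iAMPK and iAMPK livers in 5 members by limma's interaction test, or 10.6% of the members, where 11.2% of all genes were called in the same direction. The difference, the change in L-iAMPK minus the change in iAMPK livers on the log2 scale, was -0.84 (SE 0.10, adjusted p = 0.00131) for Naglu and -0.88 (SE 0.14, adjusted p = 0.00709) for Ppt1. It was -1.63 (SE 0.34, adjusted p = 0.0161) for Atp6v0d2, -0.95 (SE 0.22, adjusted p = 0.0231) for Hexa and -0.83 (SE 0.21, adjusted p = 0.0296) for Asah1. Over 23 alternatives Naglu kept its call in all, with adjusted p from 0.000108 to 0.0209, Ppt1 in 22, Hexa in 14 and Asah1 in 12, and Atp6v0d2 kept it in 20 of the 22 that tested it. Without L-iAMPK HFD replicates 1 and 2, which leaves that group with 1 library, the difference was -0.82 for Naglu, which kept its call. It was -1.52 for Atp6v0d2, -0.70 for Ppt1, -0.56 for Hexa and -0.51 for Asah1, each without a call.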

How the results depend on the processing

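The count of members called against L-iAMPK HFD, 21, was 10 with median-ratio scaling, 10 with quantile normalization, 6 with no filter, 11 with only the libraries compared, 11 with edgeR and 4 without both L-iAMPK HFD replicates 1 and 2 (1 library left there), and 6 to 23 leaving out 1 library. Against iAMPK HFD+dox, 10 members became 4 with no filter and 18 with array weights, and 4 to 11 leaving out 1 library. For L-iAMPK HFD against iAMPK HFD, 7 became 3 with median-ratio scaling, 0 with no filter, 27 with array weights, 0 with only the libraries compared, 2 with edgeR and 0 without both, and 0 to 19 leaving out 1 library. The interaction's 5 became 2 with no filter, 24 with array weights, 3 with edgeR and 1 without both, and 3 to 16 leaving out 1 library.

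For hydrolases the median change against L-iAMPK HFD, -0.35, was -0.21 with median-ratio scaling, -0.16 with quantile normalization and -0.17 without both replicates. Their interaction median, -0.38, was -0.20, -0.21 and -0.18 in that order, and their genotype median without doxycycline, 0.26, was 0.14 without both. With median-ratio scaling, activators and membrane proteins had -0.081 against L-iAMPK HFD and -0.089 for the interaction, and V-ATPase genes -0.051 and 0.094, where the unscaled interaction median was -0.086. V-ATPase genes had -0.089 with quantile normalization and -0.087 without both against L-iAMPK HFD, and 0.038 without both for the genotypes. The hydrolase sum in L-iAMPK HFD+dox was 1142.9 FPKM after median-ratio scaling. The cause of these moves was not tested.

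With a replicate block, 15, 10, 0, 5 and 5 members were called in the order of the report. The labels do not say whether the shared numbers pair the samples. Over 18 same-numbered pairs r ran between -0.275 and 0.446, with 8 above 0.1, and over differently numbered pairs between -0.304 and 0.344. Whether some libraries share a factor was not tested. Pseudocounts of 0.1 and 1, a filter at 2 FPKM and limma without trend and robust step moved no count of members by over 1.5 times. Over single members, 5136 results stayed on their side of the threshold under an alternative, 320 lost a call and 127 gained one, and no called value changed sign. Low levels limit Atp6v0d2 and Cd63, with as few as 7 and 13 reads.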
